A study of Homo sapiens with 6 samples.

Results

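The 43 genes described here encode the machinery that takes a cell from G1 into S phase and copies its DNA. They were chosen by symbol from a list of origin licensing, origin firing, replication fork, chromatin assembly, nucleotide supply and G1/S control genes. Each of the 43 matched 1 row of the deposited tables, which hold 23698 gene rows. All 43 passed the filter on low counts that left 13668 genes for testing, with 47 counts as the lowest value of any of the 43 in any library.

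The libraries came from MV4-11, an established acute myeloid leukaemia line with an internal tandem duplication in the FLT3 receptor gene. Cells stably transduced with a lentivirus carrying a short hairpin RNA against PRMT5, an enzyme that dimethylates arginines symmetrically, gave 3 libraries (knockdown 1 to 3). Cells transduced in the same way with a scrambled vector gave the other 3 (control 1 to 3). The comparison asks which genes change when PRMT5 is reduced. The hairpin's sequence, the time after transduction, and whether cells were pooled or cloned are not given in the sources used. Nothing in them says that the libraries were separate cultures, so each p-value measures only the spread between these libraries, which may be technical.

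Replication genes work in a fixed order. In G1, the origin recognition complex with CDC6 and CDT1 loads the ring of MCM2 to MCM7 onto DNA, and geminin blocks CDT1 once S phase has begun. Cyclin E with CDK2 and the CDC7-DBF4 kinase then turn the loaded ring into an active helicase by adding CDC45 and GINS, and polymerases, the PCNA clamp and its loader follow. Many of these genes are known targets of E2F transcription factors and are transcribed around the G1/S boundary, so in a bulk sample their levels depend on the share of cycling cells. In these libraries, fewer cells in S phase and less RNA per cell cannot be told apart.

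The promoters of these genes are shown first because an E2F-type sequence is what many of them share outside the list's definition. RefSeq promoter windows (GRCh38.p14, 250 bases before the start site to 50 after it, the first window listed for a gene) matched 38 of the 43 genes. MCM4, MCM5, GINS4, RPA2 and CCNE2 were not matched. The octamers TTTCCCGC, TTTCGCGC, TTTGCCGC and TTTGGCGC were searched on both strands, and matches that overlap each other were each counted. At least 1 octamer was present in 17 of the 38 windows (44.7%), against 3.33% of all 27305 windows. In 4 of the 38 windows, those of MCM2, MCM3, MCM6 and MCM7, there were at least 2 matches, against 0.154% of all windows. In the stretches below, written 5′ to 3′ in the direction of the gene, capitals mark the octamer on either strand. PCNA, TYMS, CDT1 and GINS3 are shown because their values by library are given below, and MCM6, chosen after the matches were seen, because it held 4 matches.
PCNA: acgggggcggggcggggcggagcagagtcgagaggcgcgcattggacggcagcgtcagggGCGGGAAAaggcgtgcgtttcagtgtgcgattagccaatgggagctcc
TYMS: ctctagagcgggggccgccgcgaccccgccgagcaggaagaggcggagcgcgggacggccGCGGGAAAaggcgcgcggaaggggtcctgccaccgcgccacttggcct
CDT1: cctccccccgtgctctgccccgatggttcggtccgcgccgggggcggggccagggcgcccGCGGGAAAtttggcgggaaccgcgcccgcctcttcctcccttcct
GINS3: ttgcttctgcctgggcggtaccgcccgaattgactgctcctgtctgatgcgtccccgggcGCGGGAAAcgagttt
MCM6: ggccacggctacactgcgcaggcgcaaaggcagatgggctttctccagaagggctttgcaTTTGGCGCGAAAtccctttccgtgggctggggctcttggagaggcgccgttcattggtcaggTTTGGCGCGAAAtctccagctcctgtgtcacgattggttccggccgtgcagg

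The PCNA stretch lies on the minus strand at chr20:5126634-5126741, and its match begins 59 bases before the start site. The TYMS stretch lies on the plus strand at chr18:657554-657661, with a match 39 bases before the start. The CDT1 stretch is on the plus strand at chr16:88803694-88803798, with a match 35 bases before the start. The GINS3 stretch, also on the plus strand, is at chr16:58392406-58392480, and its match begins 5 bases before the start. The MCM6 stretch is on the minus strand at chr2:135876482-135876655. There, each capital run holds a pair of overlapping matches on opposite strands, the outer pairs beginning 152 and 90 bases before the start site. A match describes these letters only, and no binding was measured.

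**Figure D1:**
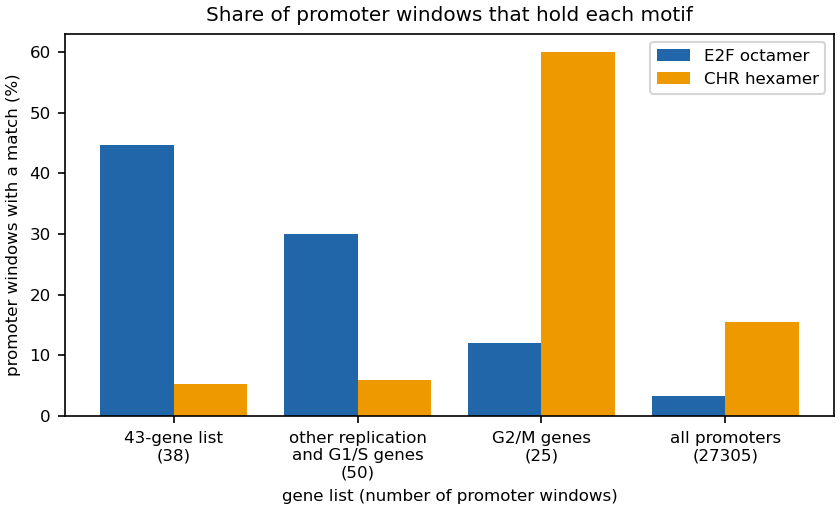
Bars give the percentage of RefSeq promoter windows (y axis) that hold an E2F octamer or the CHR hexamer for 4 gene lists (x axis, with the number of windows). The E2F octamer was in 44.7% of windows of the 43-gene list and 12.0% of G2/M windows, and the CHR hexamer in 5.26% and 60.0%.

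The hexamer TTTGAA, the cell cycle homology region (CHR) of many G2/M promoters, was distributed differently. It was in 2 of the 38 windows (5.26%), those of DBF4 and RRM1, and in 15.4% of all windows. Among 25 matched windows of a list of 30 G2/M genes it was in 15 (60.0%). The octamer was in 3 of those 25 (12.0%), against 3.33% of all windows. Of 50 matched windows of other replication and G1/S genes, the octamer was in 15 (30.0%). The plot of motif shares sets the 4 lists side by side.

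Library totals were 16408585 to 19077171 counts, after rounding of the deposited estimates. PRMT5, the check of the labels, was at 103, 71.6 and 52.99 CPM (counts scaled to library size) in knockdown 1 to 3 and at 133 and 158 CPM in controls 1 and 3. In the library labelled control 2 it was at 53.2 CPM, a level of the knockdown libraries. The PRMT5 level of that library goes against its label, and the library is called by its label throughout. Over all tested genes it was the library least like the others. Its log2 CPM correlated at 0.884, 0.909 and 0.880 with knockdown 1 to 3 and at 0.923 and 0.876 with controls 1 and 3. Correlations among the remaining libraries were 0.952 to 0.995. The log2 difference of PRMT5 was −0.60 (SE 0.43, edgeR adjusted p = 0.926), with overlapping groups, and −0.94 without the library labelled control 2. Between libraries with the same number, 1 to 3, it was −0.36, 0.43 and −1.58. Among the knockdown libraries, knockdown 1 had the highest PRMT5, so the check of the labels was weakest there. Summed CPM of 10 myeloid markers was 1990.0 to 2472 in the knockdown libraries and 1209.9 to 2232 in the controls. The library labelled control 2 was the lowest of the 6 for LYZ, MPO, ELANE, CD14 and SPI1 and the highest for CD68 and ITGAM, at 139 and 115 CPM. The T cell, erythroid and fibroblast lists of 5 markers each summed to at most 6.68 CPM in any library. The B cell list summed to at most 16.1 CPM, in control 3, where PAX5 was at 15.6 CPM, and the epithelial list to 52.1 CPM. The fibroblast and epithelial maxima were in the library labelled control 2. There, KRT8 was at 27.6 CPM, against 3.89 to 10.8 CPM elsewhere, and COL1A1 at 4.99 CPM, against at most 0.340 CPM. The erythroid markers HBA1 and HBB and the T cell markers CD3E and CD2 had no count in any library. The part of these differences in the results below was not tested.

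None of the 43 genes separated the groups. With edgeR's quasi-likelihood test, 0 of 43 passed an adjusted p of 0.05, where 0% of all tested genes did, and the smallest adjusted p among the 43 was 0.926. None had an unadjusted p under 0.05, against 1.77% of all tested genes. DESeq2 and limma-voom also called none of the 43, with none at an unadjusted p under 0.05. For no gene of the 43 did all 3 knockdown libraries lie on the same side of all 3 controls, as they did for 6.24% of all genes.

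The log2 differences, knockdown minus control, were above 0 for 29 of the 43 genes, against 49.9% of all tested genes, with a median of 0.11 over the 43 and −0.00069 over all genes. Other scalings put 28 to 32 of the 43 above 0. The differences ran from −0.50 for CDT1 to 0.56 for CCNE2. The 95% confidence intervals of all 43 included 0, with half-widths of 0.51 to 1.64. For 18 genes, among them ORC1, POLD1, RFC2 to RFC5 and RRM1, the interval lay between −1 and 1, so that a 2-fold difference in either direction was outside it. For the other 25 the interval reached past a 2-fold difference. All these intervals come from the fit to all 6 libraries, with the library labelled control 2 counted as a control.

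Without the library labelled control 2 the direction of most members turned. There, 4 of 43 genes were above 0 (50.4% of all genes were), the median was −0.20, and 25 genes had changed sign. None passed the test in that setting, where 0% of all genes did, and the smallest adjusted p among the 43 was 1.00 in edgeR. PCNA, RPA2, ORC6 and CCNE2 were the 4 above 0 both with and without that library, and 14 genes were below 0 in both.

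**Figure D2:**
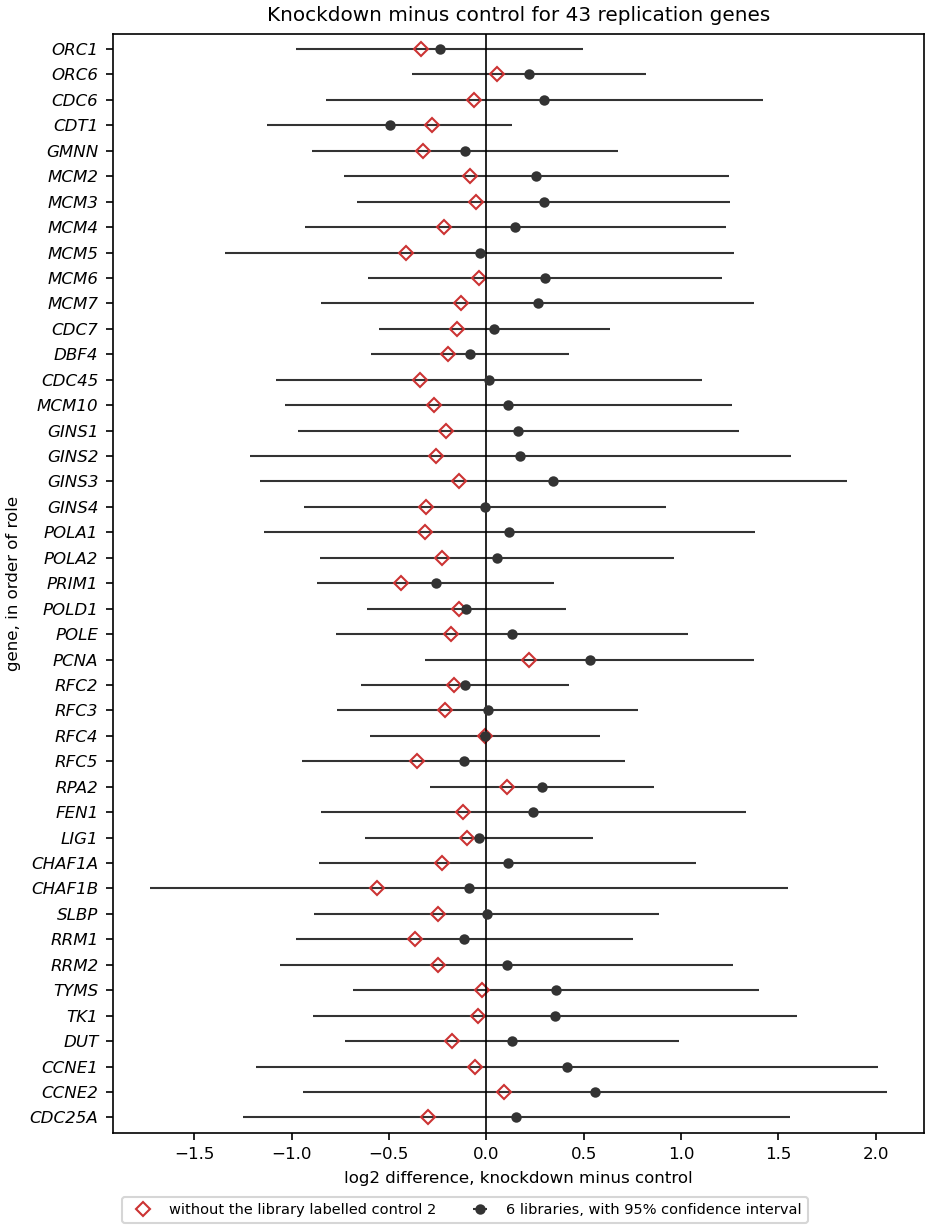
Black points give the log2 difference (x axis) of each of the 43 genes (y axis) over 6 libraries, with 95% confidence intervals as bars, and red open diamonds give it without the library labelled control 2. All 43 intervals cross 0, and 39 of the 43 diamonds lie below 0.

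Libraries of the same group differed in these genes. Over the 6 libraries the highest CPM of a gene was 1.38 to 8.77 times its lowest, with a median of 3.01, against 2.14 over all tested genes. The library labelled control 2 was the lowest of the 6 for 33 of the 43 genes, against 36.7% of all tested genes. It was the highest of the 6 for 1 of the 43, against 34.4% of all tested genes. Control 3 was the highest of the 6 for 33 of the 43, against 15.1% of all genes. In log2 CPM relative to the mean of the 6 libraries, the 43 genes had a median of −0.38, 0.16 and 0.44 in knockdown 1 to 3. The median was 0.085, −1.09 and 0.54 in the libraries labelled control 1 to 3, while that of all tested genes was within 0.021 of 0 in every library.

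The knockdown libraries divided among themselves too. Knockdown 1 was the lowest of the 3 for 40 of the 43 genes, with a median log2 difference of −0.66 from the mean of knockdown 2 and 3, against 0.0091 over all genes. Knockdown 3 and control 3 were close, with 41 of the 43 genes within 1.2-fold of each other, against 83.5% of all tested genes, and control 3 was the higher for 37 genes. PRMT5 was at 52.99 CPM in knockdown 3 and 158 CPM in control 3, a 2.99-fold difference. Between libraries with the same number, the median log2 difference of the 43 genes was −0.39 for the libraries numbered 1, 1.24 for those numbered 2 and −0.10 for those numbered 3. There, 7, 42 and 6 genes lay above 0. PCNA alone lay in the same direction in all 3 pairs, at 0.38, 1.58 and 0.0035.

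**Figure D3:**
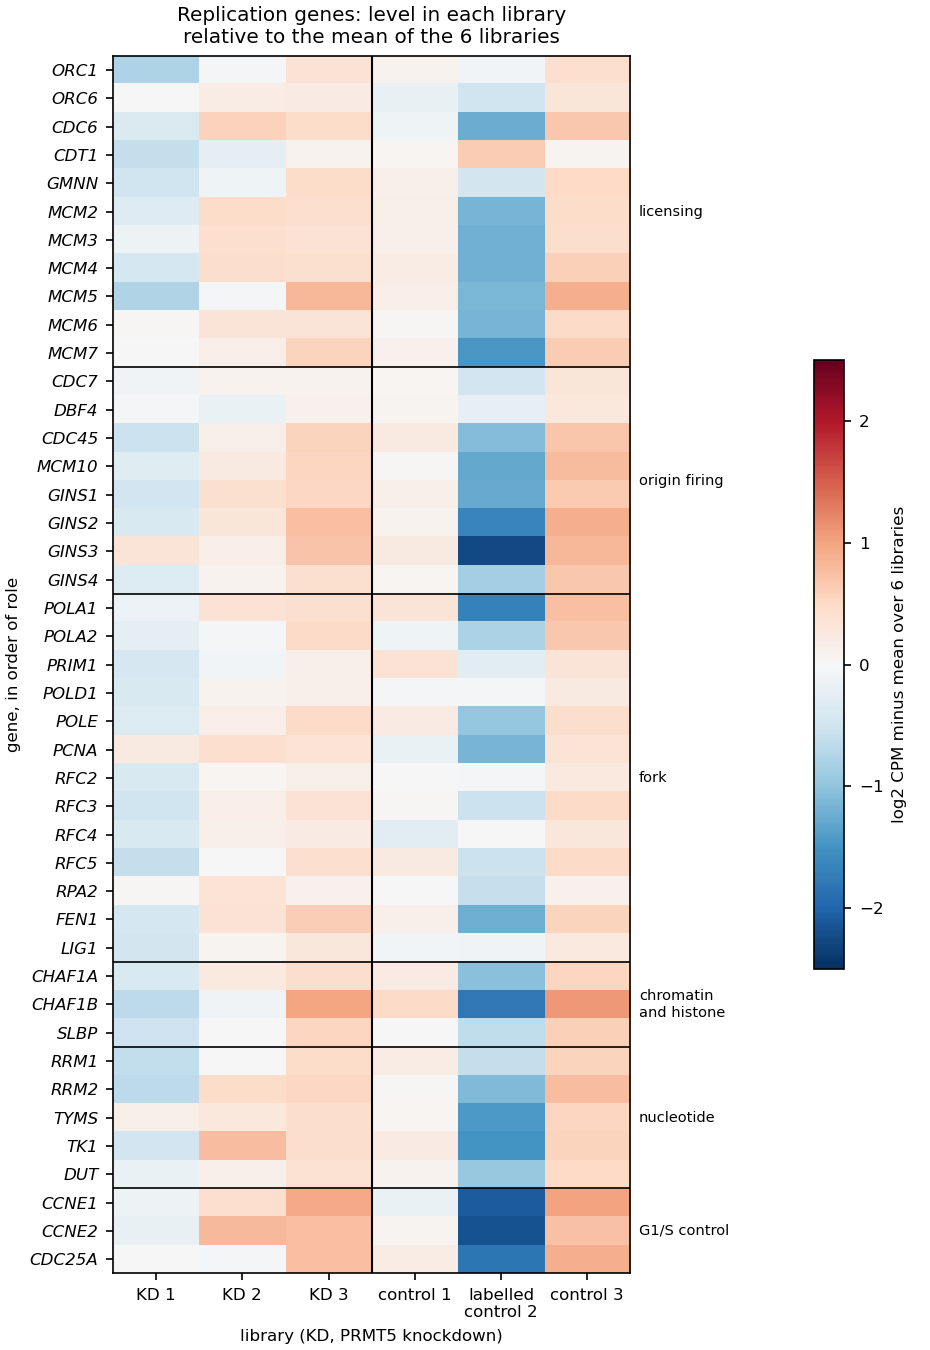
Each cell is the log2 CPM of a gene (rows, ordered by role) in a library (columns) minus that gene's mean over the 6 libraries, from blue (lower) to red (higher). The column labelled control 2 is lowest for 33 of 43 genes, with CDT1 its highest value, and control 3 is highest for 33.

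Origin licensing genes load the helicase in G1. MCM4, on chromosome 8 and the most abundant of the 43 in CPM, encodes a ring subunit and was at 331, 614 and 595 CPM in knockdown 1 to 3 and at 513, 195 and 681 CPM in control-labelled libraries 1 to 3. The groups overlapped, and the lowest value was that of the library labelled control 2. The log2 difference of MCM4 was 0.15 (SE 0.46), and −0.21 without that library. ORC6, the smallest subunit of the origin recognition complex, on chromosome 16, was at 37.7, 42.3 and 43.04 CPM across the knockdown libraries and 32.7, 26.5 and 46.4 CPM in control-labelled libraries 1 to 3. Its groups overlapped through control 3, with a log2 difference of 0.22 (SE 0.26), and 0.055 without the library labelled control 2.

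CDT1, the loading factor that geminin binds, stood apart from the other members. It was at 58.8, 75.1 and 94.7 CPM in knockdown 1 to 3 and at 91.9, 137 and 93.3 CPM in control-labelled libraries 1 to 3. It was the only member whose highest value was in the library labelled control 2. Its knockdown mean was 76.2 ± 18.0 CPM (SD, n = 3) and its control mean 107 ± 25.8 CPM. The log2 difference was −0.50, with a 95% confidence interval of −1.12 to 0.13 and an edgeR adjusted p of 0.926. This was the smallest p of the 43 genes, 0.105 before adjustment, and without the library labelled control 2 the difference was −0.28. GMNN, the gene of geminin, had a log2 difference of −0.11 between the groups. Between that library and controls 1 and 3 it was −0.77, taken here and below against the mean log2 CPM of those controls. As CPM per kilobase of transcript, CDT1 was 1.34 times GMNN in the library labelled control 2 and 0.470 to 0.594 times GMNN in the other 5, a ratio chosen after its values were seen.

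The subunits of the MCM ring shared a drop in the library labelled control 2 but were not at equal levels. All 6 were over 2-fold lower in the library labelled control 2 than in controls 1 and 3, with a median log2 difference of −1.54. The other licensing genes had a median of −0.56 there, and CDC6 alone among those 5 was over 2-fold lower. Per kilobase of transcript, MCM5 was the lowest of the 6 subunits in every library, at 20.3, 33.4 and 60.9 CPM per kb in knockdown 1 to 3. MCM4 or MCM7 was the highest, at 102, 147 and 149 CPM per kb in those libraries. The highest subunit was 2.44 to 5.01 times the lowest, the widest gap being in knockdown 1. Of the 6, MCM5 varied most among the knockdown libraries, with 71.7, 118 and 215 CPM, and MCM4 stayed at 1.94 to 2.31 times MCM2 per kilobase in all 6 libraries. MCM2 and MCM7 share exon bases with genes on the opposite strand, TPRA1 and AP4M1, and strand use in counting is not given in the sources used here.

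Origin firing genes turn the loaded ring into a helicase. GINS3, a subunit of the GINS complex on chromosome 16, was at 24.5, 21.9 and 32.1 CPM in knockdown 1 to 3 and at 23.0, 4.02 and 34.9 CPM in control-labelled libraries 1 to 3. The library labelled control 2 lay far under the other 5, whose groups overlapped. The log2 difference was 0.34 (SE 0.65), and −0.14 without that library. MCM10, a scaffold for helicase activation on chromosome 10, was at 43.6, 62.7 and 78.4 CPM across the knockdown libraries and 55.3, 21.98 and 93.3 CPM in control-labelled libraries 1 to 3, a log2 difference of 0.11 (SE 0.49). Its values overlapped between groups, and the difference was −0.27 without the library labelled control 2.

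DBF4, the activating subunit of the CDC7 kinase, on chromosome 7, was the steadiest of the 43 genes. It was at 33.6, 31.0 and 37.3 CPM across the knockdown libraries, and 36.4, 30.1 and 41.5 CPM in control-labelled libraries 1 to 3, a 1.38-fold range over 6 libraries. Its log2 difference was −0.084 (95% confidence interval −0.59 to 0.43, edgeR adjusted p = 0.950). The 8 firing genes were all lower in the library labelled control 2 than in controls 1 and 3. Against the mean log2 CPM of those controls, 6 of them were over 2-fold lower. Per kilobase, the 4 GINS subunits lay within 1.13 to 1.83 times of each other in the other 5 libraries and spread 3.45-fold in the library labelled control 2, between 1.77 for GINS3 and 6.09 CPM per kb for GINS4.

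**Figure D4:**
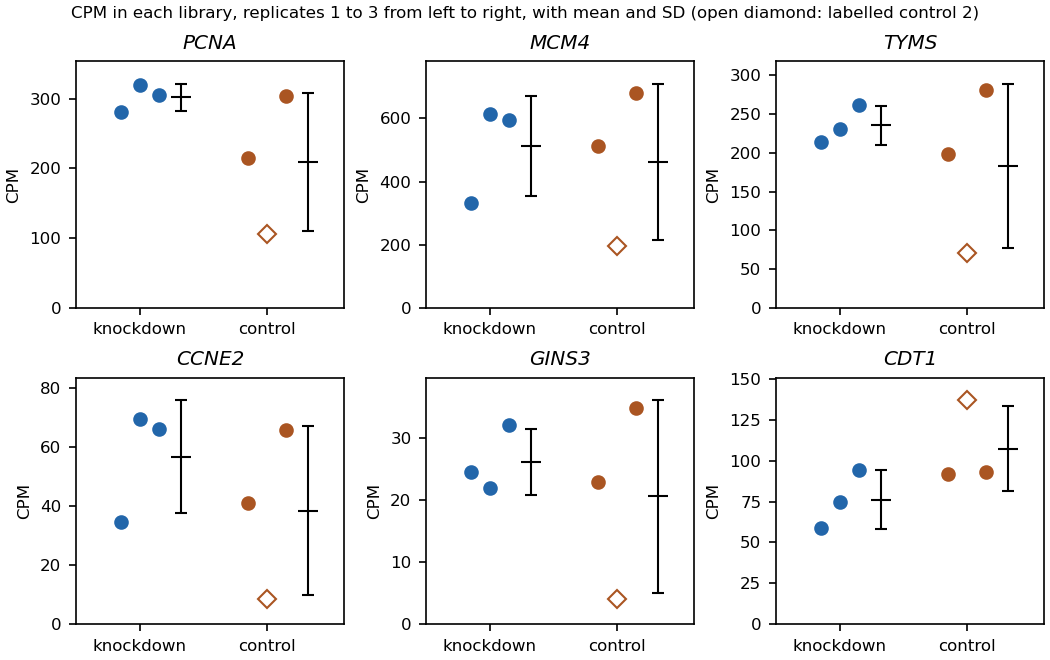
Points are the CPM (y axis, from 0) of 6 genes in each library, replicates 1 to 3 from left to right within each group, with the mean and SD at the right of each group and the library labelled control 2 as an open diamond. That library is the lowest for PCNA, MCM4, TYMS, CCNE2 and GINS3 and the highest for CDT1, and the groups overlap for all 6.

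Among fork genes, PCNA, the sliding clamp gene on chromosome 20, had the highest mean level of the 43 per kilobase of transcript, 188 CPM per kb. It was at 280.4, 319 and 305 CPM in knockdown 1 to 3 and at 215, 107 and 304 CPM in control-labelled libraries 1 to 3. The knockdown libraries lay close together, and control 3 reached into their range. The knockdown mean of PCNA was 302 ± 19.7 CPM (SD, n = 3) and its control mean 209 ± 98.9 CPM. The log2 difference was 0.53, with a 95% confidence interval of −0.31 to 1.38 and an edgeR adjusted p of 0.926. Without the library labelled control 2 it was 0.22. RPA2, the middle subunit of the single-strand binding protein, on chromosome 1, was at 82.1, 102 and 86.5 CPM and at 80.9, 53.8 and 87.3 CPM in the same order, a log2 difference of 0.29 (SE 0.25), and 0.10 without the library labelled control 2.

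Fork genes did not share one pattern across libraries. In the library labelled control 2, 5 of the 13 were over 2-fold below the mean log2 CPM of controls 1 and 3. The 5 were POLA1, FEN1, POLE, PCNA and POLA2, and 15.2% of all genes were that low there. POLA1, the catalytic subunit of the primase-polymerase, was at 11.3 CPM there and at 32.9 to 61.0 CPM in the other 5 libraries. Its partner PRIM1, the primase subunit, was at 47.9 CPM there and at 43.5 to 74.9 CPM in the others, so that PRIM1 per kilobase was 16.7 times POLA1 in that library and 4.71 to 6.50 times in the other 5. PRIM1 shares exon bases with 3 other protein-coding genes of the GENCODE annotation, NACA among them, so part of its count may belong to them.

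In the library labelled control 2, POLD1, RFC2, RFC4 and LIG1 were within 1.2-fold of the mean log2 CPM of controls 1 and 3. No other member was within that range. The genes named here were singled out after their values were seen. POLD1, the lagging-strand polymerase, was at 93.4, 129.8 and 133 CPM in knockdown 1 to 3 and at 119.6, 119.8 and 143 CPM in control-labelled libraries 1 to 3. POLE, the leading-strand polymerase, was at 137, 194 and 243 CPM and at 199, 89.0 and 235 CPM in the same order. POLD1 per kilobase was thus 3.07 times POLE in the library labelled control 2 and 1.25 to 1.55 times in the other 5. The lowest library for POLD1, RFC2, RFC4 and LIG1 was knockdown 1, and their log2 differences between the groups were −0.10, −0.11, −0.0071 and −0.038. RFC4 shares exon bases with EIF4A2 on the opposite strand. POLD1, POLA2, FEN1, CHAF1B and RRM2 each share exon bases with a protein-coding gene on the same strand, so part of their counts may belong to it. On either strand, 15 members share exon bases with a protein-coding gene.

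Chromatin genes package the new DNA. CHAF1B, the middle subunit of the CAF-1 histone chaperone, on chromosome 21, was at 10.8, 16.1 and 34.1 CPM in knockdown 1 to 3 and at 23.8, 4.86 and 36.2 CPM in control-labelled libraries 1 to 3. It had the lowest level of the 43 per kilobase and a 7.44-fold range over libraries, with each of knockdown 1 and the library labelled control 2 lowest in its group. Its log2 difference was −0.090 (SE 0.70), and −0.56 without the library labelled control 2. CHAF1A, the large subunit, on chromosome 19, was at 79.7, 124 and 141 CPM and at 119, 49.998 and 150.3 CPM in the same order, a log2 difference of 0.11 (SE 0.42) that was −0.23 without the library labelled control 2. SLBP, whose protein binds the stem-loop of histone messages, had a log2 difference of 0.0022.

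Nucleotide genes supply DNA precursors. TYMS, thymidylate synthase, on chromosome 18, was at 213, 230.3 and 262 CPM in knockdown 1 to 3 and at 199, 70.9 and 281 CPM in control-labelled libraries 1 to 3. The groups overlapped, with a log2 difference of 0.36 (SE 0.45) that was −0.024 without the library labelled control 2. TYMS shares exon bases with ENOSF1 on the opposite strand. TK1, thymidine kinase of the salvage route, on chromosome 17, was at 36.1, 86.3 and 68.7 CPM across the knockdown libraries and 57.8, 17.7 and 73.9 CPM in control-labelled libraries 1 to 3, a log2 difference of 0.35 (SE 0.53), and −0.045 without the library labelled control 2. The remaining members, RRM1 and RRM2, the ribonucleotide reductase subunits, and DUT, the dUTPase, had log2 differences of −0.11, 0.10 and 0.13. DUT has 8 named pseudogenes in the annotation, the most of any member, and 9 members have at least 1.

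G1/S control genes varied most between libraries. CCNE2, on chromosome 8, and CCNE1, on chromosome 19, encode the E cyclins that activate CDK2. CCNE2 was at 34.7, 69.5 and 66.3 CPM in knockdown 1 to 3 and at 41.2, 8.69 and 65.8 CPM in control-labelled libraries 1 to 3. CCNE1 was at 12.1, 17.7 and 25.7 CPM and at 11.7, 3.05 and 26.7 CPM in the same order, an 8.77-fold range that was the widest of the 43. For both genes controls 1 and 3 spanned much of the knockdown range. Their log2 differences were 0.56 (SE 0.64) and 0.41 (SE 0.68), and 0.090 and −0.057 without the library labelled control 2. CDC25A, the phosphatase that activates CDK2, was at 7.65 CPM in that library and at 26.7 to 50.9 CPM in the other 5.

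**Figure D5:**
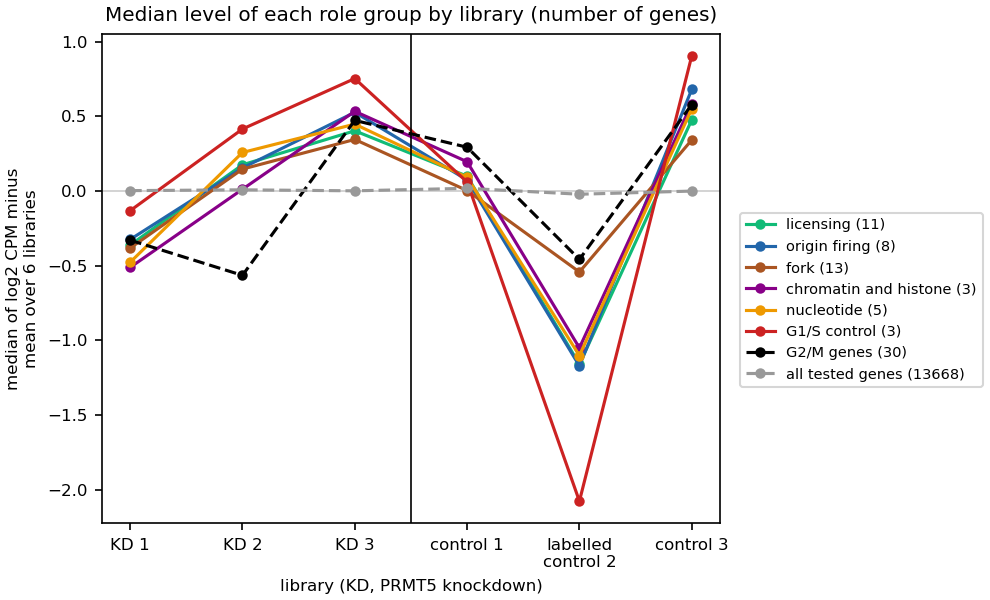
Each point is the median over a role group of log2 CPM minus the gene's mean over 6 libraries (y axis), by library (x axis). Lines only join the points of a group, and the G2/M genes and all tested genes are dashed. In the library labelled control 2 the medians run from −2.08 for G1/S control genes to −0.54 for fork genes, and G2/M genes have their lowest median, −0.56, in knockdown 2.

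By role, the median log2 difference between the groups was 0.22 for licensing, 0.077 for firing, 0.0074 for fork, 0.0022 for chromatin, 0.13 for nucleotide and 0.41 for G1/S control genes. All 6 medians were below 0 without the library labelled control 2, between −0.25 and −0.057. In that library the role medians stood in another order: the 3 G1/S control genes were lowest against controls 1 and 3, with a median log2 difference of −2.50, and fork genes least low, with −0.79. The median was −1.60 for firing, −1.50 for nucleotide, −1.47 for licensing and −1.42 for chromatin genes, against −0.022 for all tested genes. The 17 genes whose promoter window held an E2F octamer had a median of −1.49 there, and the 21 without a match −0.93, with overlapping ranges of −2.78 to 0.57 and −2.57 to 0.015.

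Other replication and G1/S genes, 62 in all, gave the same kind of result. None passed the edgeR test in either direction, none had an unadjusted p under 0.05, and 40 were above 0 and 22 below, with a median log2 difference of 0.096. CDKN1B, the gene of the CDK2 inhibitor p27, was at 62.7, 58.5 and 52.7 CPM in knockdown 1 to 3 and at 80.3, 139.6 and 56.3 CPM in control-labelled libraries 1 to 3, a log2 difference of −0.67 (SE 0.34), and −0.23 without the library labelled control 2. CDKN1A, the gene of the inhibitor p21, was at 1465, 681 and 368 CPM and at 465, 551 and 277 CPM in the same order, a log2 difference of 0.96 (SE 0.51). Its highest value was in knockdown 1, and knockdown 3 lay below the libraries labelled control 1 and control 2. Both genes overlapped between the groups, and both had an edgeR adjusted p of 0.926. In the library labelled control 2 the list's median was −0.77 against controls 1 and 3, and without that library its median difference between the groups was −0.12. Among the 62, POLE4, a small subunit of the leading-strand polymerase, was higher in every knockdown library than in any control, and RBL2, the p130 pocket protein gene, was lower, with log2 differences of 0.61 and −0.36. Such groups without overlap were found for 6.24% of all tested genes. Without the library labelled control 2 the values of POLE4 and RBL2 were 0.31 and −0.21.

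G2/M genes, 30 in all, differed from the replication genes in knockdown 2. Their median relative to the mean of the 6 libraries was −0.33, −0.56 and 0.47 in knockdown 1 to 3 and 0.29, −0.46 and 0.58 in the libraries labelled control 1 to 3. Knockdown 2 was the lowest of the 6 for 14 of the 30 G2/M genes, against 12.9% of all tested genes. It was the lowest for none of the 43 replication genes, whose median there was 0.16. Between the groups, 29 of the 30 were below 0, with a median log2 difference of −0.27 and none past the edgeR test or at an unadjusted p under 0.05. Of all tested genes, 49.9% were above 0. Without control 3 the G2/M median was −0.0071, with 14 of the 30 above 0, and without knockdown 2 it was −0.067, with 11 above 0. Without knockdown 3 it was −0.68, with 0 above 0. It was −0.15 without knockdown 1 and −0.20 without control 1. NEK2, a centrosomal kinase, was at 19.9, 17.0 and 42.8 CPM across the knockdown libraries, and 36.1, 52.7 and 44.1 CPM in control-labelled libraries 1 to 3, a log2 difference of −0.74 (SE 0.38). TTK, a spindle checkpoint kinase, was at 45.2, 51.1 and 73.3 CPM and at 66.2, 78.5 and 77.7 CPM in the same order, a log2 difference of −0.39 (SE 0.24). Both kinases overlapped between the groups. Without the library labelled control 2 both lists lay below 0, at medians of −0.50 for G2/M and −0.20 for replication genes, and the difference between the lists was not tested.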

How the data were processed

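Total RNA was turned into poly(A) libraries, per the labels' protocols. For each library the authors deposited 1 table of estimated counts by gene, not scaled to depth. Between 40.3% and 42.3% of values were whole (tolerance 1e-06), and all were rounded to whole numbers. Of the authors' own steps, the submitters' processing notes list the names hg19, CASAVA 1.9, TopHat2 version 2 and edgeR alone. Which tool counted, with which annotation and whether by strand, is not given in the sources used here. Reads carry no molecular identifiers.

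Genes kept by filterByExpr (minimum count 10, by group) entered the quasi-likelihood test of edgeR 4.0.16 (R 4.3.3): TMM scaling, group as the only term, two-sided, with Benjamini-Hochberg adjustment over 13668 genes and a threshold of 0.05. The smallest exact permutation p that 3 against 3 libraries allow is 0.1, and no such test was run. Log2 CPM used a prior count of 2, and intervals are 95%. The script was run on simulated counts with 200 seeded genes. The simulation held no library that departs from the others over many genes, as the library labelled control 2 does here. It therefore gives no measure of what the test could find in these libraries.

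Values by library are given, in each role, for the 2 genes with the smallest p, the gene with the highest mean CPM and any gene whose groups do not overlap, and for the 2 smallest p of each other list. Others named were chosen after their values were seen. The members and lists were chosen with earlier results of these data known. A motif search in proteins was not analysed here.

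Lengths are of the longest principal transcript in GENCODE 29 (all 43 genes matched by symbol), and overlaps come from the same annotation. Deviations of same-numbered libraries from their group means correlated at 0.127, 0.394 and 0.566 over genes, each above the 0.1 taken here as a mark of pairs. The numbers come from the sample titles, and the labels do not state a pairing. Control 1 correlated more with knockdown 2, at 0.164, than with knockdown 1, so this mark does not single out same-numbered pairs. The main test has no block for the replicate number. The alternatives tried were scaling by total count, upper quartile or RLE, no count filter, a minimum of 1 CPM in 3 libraries, DESeq2 1.42.0, limma-voom (limma 3.58.1), the replicate number as a block, each library left out, and both libraries numbered 2 left out.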

Additional observations from a re-analysis of the deposited data

How the results depend on the processing

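In every alternative run, none of the 43 genes and none of all tested genes passed an adjusted p of 0.05. The number of the 43 above 0 was 28 to 32 under other scalings, filters and tools, 4 to 40 when a library was left out and 3 without both libraries numbered 2. Their median log2 difference ran from −0.20 to 0.50 over libraries left out. It was −0.093, with 17 genes above 0, without knockdown 3, and 0.28 and 0.50 without knockdown 1 and control 3. Blocking on the replicate number gave 32 genes above 0 and a median of 0.20, and changed no call. CHAF1B turned to 0.12 both with the block and in limma-voom. When a library was left out, signs changed within −0.69 to 0.50 for CHAF1B, −0.23 to 0.44 for CHAF1A, −0.14 to 0.95 for GINS3 and −0.27 to 0.67 for MCM10. The ranges were −0.20 to 0.033 for DBF4, −0.057 to 1.32 for CCNE1, −0.21 to 0.54 for MCM4, −0.024 to 0.80 for TYMS and −0.045 to 0.75 for TK1. The values of ORC6, RPA2, PCNA and CCNE2 kept their sign, within 0.055 to 0.47, 0.10 to 0.42, 0.22 to 0.91 and 0.090 to 1.19. CDT1 stayed below 0, within −0.68 to −0.28. Without both libraries numbered 2, the values that turned were −0.29 for CHAF1A and MCM10, −0.031 for GINS3, −0.085 for CCNE2, −0.029 for CCNE1, −0.37 for MCM4, −0.013 for TYMS and −0.33 for TK1. Where these signs changed, the cause was not tested. The biological coefficient of variation over all genes was 0.373. The parts of depth and of the spread between libraries in the intervals were not separated.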
